A study of Mus musculus with 4 samples.

Results

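The genes described here code for small leucine-rich proteoglycans and for proteins of elastic fibres, the components that space collagen fibrils and give skin its recoil. They were taken by name as all probe sets of the array whose only gene symbol was Dcn, Lum, Fmod, Bgn, Ogn, Eln, Fbn1, Fbln1, Fbln5 or Mfap5. This gave 23 of the 45101 probe sets of the array, for 9 of the 10 named genes; no probe set carried Fbn1 as its only symbol in the annotation used, and Fbn1 was not analysed here. RNA of mouse back skin had been measured on 4 Affymetrix arrays. There were 2 arrays of K5-IKKbeta transgenic skin, from mice that carry the gene of the kinase IKKbeta under regulatory elements of keratin K5, and 2 arrays of wild type skin. The keratin K5 elements are active in basal keratinocytes of epidermis and hair follicle, and not, as far as is known, in the dermal fibroblasts that make most of the proteins described here. All mice were 32-day-old males of the strain given as C57BL6 X DBA2, and each array held RNA pooled from 3 mice, so the spread between arrays of a genotype is a spread between pools and differences between single mice cannot be seen.

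Small leucine-rich proteoglycans are secreted core proteins built of leucine-rich repeats, most of which carry a few chains of dermatan, chondroitin or keratan sulfate. They bind collagen fibrils, control how thick and how regularly spaced the fibrils become, and can hold growth factors of the TGF-beta family. Elastic fibres have a core of cross-linked elastin laid down on a scaffold of fibrillin microfibrils, with fibulins and microfibril-associated proteins guiding the assembly and lysyl oxidases making the cross-links. In mouse skin both groups of genes are expressed mainly by dermal fibroblasts.

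Upstream sequences are shown for 3 proteoglycan genes, to set out letters beside the values: Fmod and Bgn, whose brightest probe sets were higher in K5-IKKbeta skin, and Ogn, for which no probe set passed the test. The sequences are the 250 bases before the gene start, from RefSeq on the mouse build GRCm38.p6; 6 of the 10 named genes had an entry, with 8 windows between them. All 3 lie on the plus strand, at chr1:134037004-134037253 for Fmod, chrX:73483351-73483600 for Bgn and chr13:49607765-49608014 for Ogn. Capitals mark matches on either strand to any of 4 motifs: the TATA box TATAAA, the GC box GGGCGG, the Smad box CAGAC and a loose form of the kappaB site of NF-kB, the letters GGG and CC with any 5 bases between them.
Fmod: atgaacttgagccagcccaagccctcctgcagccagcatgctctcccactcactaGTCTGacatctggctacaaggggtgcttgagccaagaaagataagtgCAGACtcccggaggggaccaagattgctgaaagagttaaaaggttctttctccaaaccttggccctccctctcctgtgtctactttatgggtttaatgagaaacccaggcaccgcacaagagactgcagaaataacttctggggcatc
Bgn: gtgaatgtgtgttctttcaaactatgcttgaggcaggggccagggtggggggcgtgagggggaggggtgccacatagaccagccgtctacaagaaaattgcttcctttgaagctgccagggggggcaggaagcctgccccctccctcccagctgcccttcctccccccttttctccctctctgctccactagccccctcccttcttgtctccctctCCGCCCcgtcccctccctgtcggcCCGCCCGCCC
Ogn: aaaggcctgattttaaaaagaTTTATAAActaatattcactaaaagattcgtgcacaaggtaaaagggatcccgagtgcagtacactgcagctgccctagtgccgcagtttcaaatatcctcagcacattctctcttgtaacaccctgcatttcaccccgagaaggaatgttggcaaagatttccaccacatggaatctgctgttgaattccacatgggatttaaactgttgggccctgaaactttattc
The Fmod window held 2 Smad boxes and none of the other motifs. The Bgn window held 3 GC boxes, of which the last 2 overlap, and had a GC content of 64.4%, against 51.2% for Fmod and 42.0% for Ogn. The Ogn window held 2 overlapping TATA boxes, read on opposite strands with their first bases at -229 and -227 from the start. Over all 32851 windows of this length the Smad box was present in 42.2%, the GC box in 32.7%, the TATA box in 12.4% and the kappaB form in 45.8%. Among the other windows, 1 of Fbln1 and 1 of Fbln5 held matches to the kappaB form, and none of the 3 shown did. A match is a description of these letters, and the windows say nothing of binding in skin.

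Decorin, lumican, fibromodulin, biglycan, elastin, fibulin-5 and MAGP-2 mRNAs were higher in K5-IKKbeta skin, by 1.59-fold to 2.78-fold over the probe sets called, apart from 1 of Fmod given as at least 1.46-fold. Osteoglycin and fibulin-1 mRNAs did not pass the test. Of the 23 probe sets, 15 were higher in K5-IKKbeta skin and 0 were lower (limma, Benjamini-Hochberg adjusted p under 0.05 over all 45037 probe sets tested). An unadjusted p under 0.05 in either direction was found for 19 of the 23, against 13098 of all 45037. Over the whole array 10.4% of probe sets were called higher and 5.90% lower, 16.3% in all. Counted by the brightest probe set of each gene, 7 of the 9 genes were higher, against 14.3% of 18193 genes (6.67% were lower, 21.0% changed in either direction). The median log2 fold change (K5-IKKbeta minus wild type, as throughout) was 0.97 over the 9 genes and 0.03 over all genes. Arrays of the genotypes did not overlap for 19 of the 23 probe sets, against 56.1% of all probe sets; 18 of the 23 did not overlap and were higher in K5-IKKbeta skin, against 30.4% of all probe sets. For the brightest probe sets 8 of 9 genes did not overlap, all higher in K5-IKKbeta skin, against 61.6% of all genes in either direction and 37.0% higher. No filter on dim probe sets was used, so all 23 were tested; 21 of them were brighter on average than 40% of the array. In whole skin, more cells of a type and more RNA per cell cannot be told apart.

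Fewer calls were made with a wild type array left out, over the whole array as among these genes. Without wild type array 1, 6 of the 15 probe sets stayed higher, and the count over all probe sets was 1648, against 4695 with all arrays. Without wild type array 2, again 6 stayed higher, and the count over all probe sets was 1689. The probe sets that stayed higher were the same in both cases, and were also among those called with either K5-IKKbeta array left out. They were both of Eln, Fbln5 1416164_at, Mfap5 1418454_at, Bgn 1448323_a_at and Fmod 1456084_x_at. The brightest probe sets of Dcn, Lum, Bgn and Fmod were not among them. Without wild type array 1 and 2 the log2 fold change was 1.12 and 1.18 for Fmod 1415939_at, and 0.73 and 0.75 for Bgn 1416405_at. In the same order it was 0.82 and 0.57 for Dcn 1449368_at, and 1.19 and 0.99 for Lum 1423607_at. With the spread of each probe set estimated alone, limma without moderation called 0 of the 23. That test called 11 probe sets higher and 8 lower on the whole array. An unadjusted p under 0.05 was reached there by 15 of the 23, against 9287 of all 45037.

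**Figure D1:**
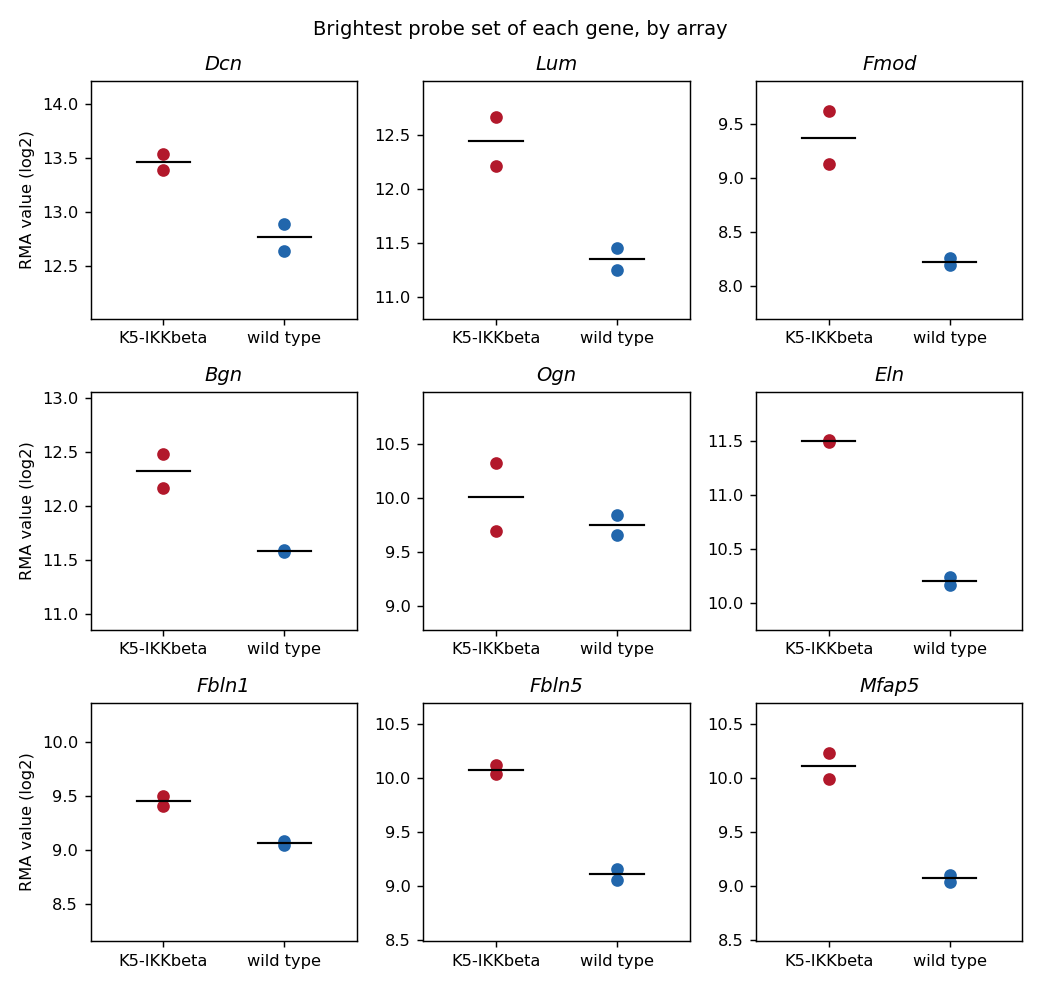
Log2 RMA value (vertical axis) of the brightest probe set of each of 9 genes; each point is an array (a pool of mice), bars are group means, K5-IKKbeta left and wild type right, and each panel spans the same width of log2 units around its own centre. The K5-IKKbeta points lie above the wild type points in every panel but that of Ogn, where they overlap.

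Dcn codes for decorin, the proteoglycan that coats collagen fibrils throughout the dermis and binds TGF-beta. Its brighter probe set, 1449368_at, had log2 RMA values of 13.39 and 13.53 in the K5-IKKbeta arrays, against 12.89 and 12.64 in the wild type arrays. Both K5-IKKbeta arrays lay above both wild type arrays. Dcn was 1.62-fold higher, with a log2 fold change of 0.70 (95% confidence interval 0.38 to 1.01, limma adjusted p = 0.0155). These levels are near the top of the range of the arrays, where the highest value was 14.67; the part of saturation was not tested. The dimmer probe set 1441506_at read 6.78 and 7.31 in K5-IKKbeta skin and 6.80 and 6.65 in wild type skin. Only K5-IKKbeta array 2 stood above the wild type arrays there, and the log2 fold change of 0.32 (interval -0.12 to 0.76, adjusted p = 0.319) did not pass.

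Bgn codes for biglycan, the closest relative of decorin, which also binds collagen and, once released, can engage Toll-like receptors. Its 3 probe sets were all higher in K5-IKKbeta skin. Probe set 1416405_at read 12.17 and 12.48 in K5-IKKbeta skin, against 11.58 and 11.59 in wild type skin, 1.67-fold higher (0.74 on the log2 scale, adjusted p = 0.0137). Probe set 1448323_a_at read 12.26 and 12.30 in K5-IKKbeta skin, against 11.31 and 11.37 in wild type skin, 1.92-fold higher (0.94, interval 0.69 to 1.19, adjusted p = 0.0022). The last one, 1437889_x_at, had a log2 fold change of 0.80 (adjusted p = 0.00409). The intervals of the 3 probe sets overlapped.

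Lum codes for lumican, a keratan sulfate proteoglycan that regulates fibril thickness in cornea and skin. Its only probe set, 1423607_at, read 12.21 and 12.67 in K5-IKKbeta skin, against 11.45 and 11.25 in wild type skin. The groups were separated by 0.76 on the log2 scale, and Lum was 2.13-fold higher (log2 fold change 1.09, SE 0.17, adjusted p = 0.00816).

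Fmod codes for fibromodulin, which binds collagen at the site also bound by lumican and takes part in the cross-linking of fibrils. It was covered by 6 probe sets, 5 of them with an ending (_x_at) that marks probes able to bind other transcripts too, and 5 of the 6 were higher in K5-IKKbeta skin. The brightest, 1415939_at, which has no such ending, read 9.62 and 9.13 in K5-IKKbeta skin, against 8.20 and 8.26 in wild type skin, 2.21-fold higher (1.15 on the log2 scale, interval 0.73 to 1.56, adjusted p = 0.00655). Probe set 1456084_x_at had the largest difference of all 23, at 8.86 and 8.42 in K5-IKKbeta skin and 7.01 and 7.33 in wild type skin (log2 fold change 1.47, 2.78-fold, adjusted p = 0.00319). Probe set 1437685_x_at read 8.13 and 7.75 in K5-IKKbeta skin, against 7.19 and 7.35 in wild type skin (1.59-fold, adjusted p = 0.032). It lost its call without K5-IKKbeta array 1 (log2 fold change 0.48). Without either wild type array, 1456084_x_at alone of the Fmod probe sets stayed called. Probe set 1437324_x_at, at 7.36 and 7.10 in K5-IKKbeta skin and 6.39 and 6.47 in wild type skin, was 1.74-fold higher (adjusted p = 0.00868). For 1438966_x_at each wild type value fell under the 25th percentile of that array, taken here as a floor for dim probe sets, and the rise is given as at least 1.46-fold (adjusted p = 0.0193). The member that missed the threshold was 1437718_x_at, at 8.04 and 7.55 in K5-IKKbeta skin and 7.13 and 7.32 in wild type skin (0.57, adjusted p = 0.0821). All 6 had K5-IKKbeta arrays above wild type arrays.

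Ogn codes for osteoglycin, also named mimecan, a small proteoglycan of skin, bone and vessel walls. Neither of its probe sets passed. Probe set 1419663_at read 9.69 and 10.32 in K5-IKKbeta skin and 9.84 and 9.65 in wild type skin, and 1419662_at read 9.40 and 10.22 in K5-IKKbeta skin and 9.77 and 9.65 in wild type skin. K5-IKKbeta array 2 lay above both wild type arrays in each case, while K5-IKKbeta array 1 lay within the wild type range for 1419663_at and below it for 1419662_at. The log2 fold changes were 0.26 (interval -0.24 to 0.77, adjusted p = 0.488) and 0.10 (interval -0.51 to 0.71, adjusted p = 0.854). The intervals are wide enough to hold a rise of the size seen for Dcn. Without K5-IKKbeta array 1, 1419663_at was higher (log2 fold change 0.58, adjusted p = 0.0459), and without K5-IKKbeta array 2 the values of 1419663_at and 1419662_at were -0.054 and -0.31.

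**Figure D2:**
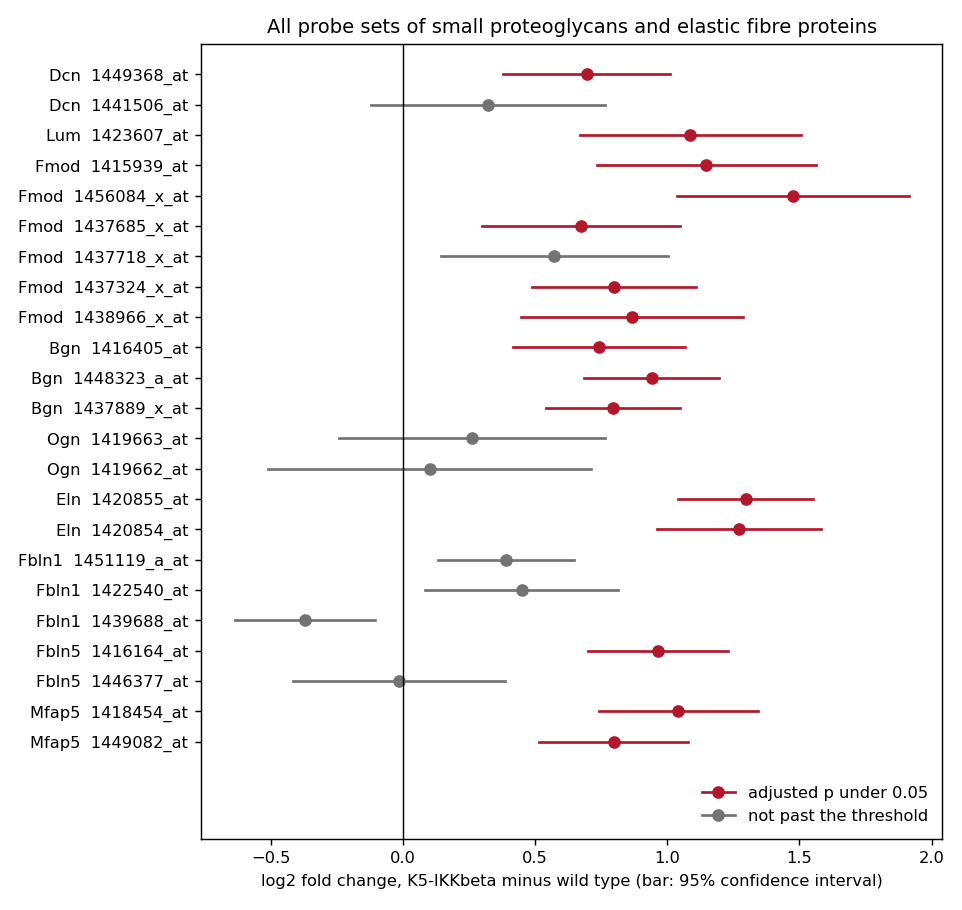
Log2 fold change of each of the 23 probe sets (points) with 95% confidence intervals (bars), K5-IKKbeta minus wild type; red marks probe sets past the threshold. Red points run from 0.67 to 1.47. The grey ones are both probe sets of Ogn, all 3 of Fbln1, the dimmer ones of Dcn and Fbln5, and Fmod 1437718_x_at.

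Eln codes for tropoelastin, the soluble unit of the elastic core. Probe set 1420855_at read 11.49 and 11.51 in K5-IKKbeta skin, against 10.24 and 10.17 in wild type skin, and 1420854_at read 10.03 and 10.30 in K5-IKKbeta skin, against 8.87 and 8.92 in wild type skin. In both probe sets the gap between the genotypes was several times the difference between pools. Eln was 2.46-fold higher by the first (log2 fold change 1.30, interval 1.04 to 1.55, adjusted p = 0.000697) and 2.41-fold higher by the second (1.27, interval 0.96 to 1.58, adjusted p = 0.00156). Among the 9 brightest probe sets this was the largest log2 fold change, although its interval overlapped those of Fmod, Lum, Mfap5, Fbln5 and Bgn.

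Fbln5 codes for fibulin-5, which tethers elastin to microfibrils and to cells, and without which mouse skin is loose. Probe set 1416164_at read 10.03 and 10.11 in K5-IKKbeta skin, against 9.05 and 9.16 in wild type skin, 1.95-fold higher (0.97 on the log2 scale, interval 0.70 to 1.23, adjusted p = 0.00236). The other probe set, 1446377_at, was dim, with both wild type arrays below the floor, and showed 5.52 and 5.05 in K5-IKKbeta skin and 5.32 and 5.29 in wild type skin (-0.02, adjusted p = 0.972). Its K5-IKKbeta arrays lay on either side of the wild type arrays.

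Mfap5 codes for a glycoprotein of the microfibrils, MAGP-2. Probe set 1418454_at read 9.99 and 10.24 in K5-IKKbeta skin, against 9.04 and 9.11 in wild type skin, 2.06-fold higher (1.04 on the log2 scale, adjusted p = 0.00283). Probe set 1449082_at read 8.87 and 9.05 in K5-IKKbeta skin, against 8.20 and 8.12 in wild type skin, 1.74-fold higher (0.80, adjusted p = 0.00599). The arrays of the genotypes were separate in both.

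Fbln1 codes for fibulin-1, a protein of elastic fibres and basement membranes. None of its 3 probe sets passed, and they differed in sign. Probe set 1451119_a_at read 9.41 and 9.50 in K5-IKKbeta skin and 9.08 and 9.05 in wild type skin (log2 fold change 0.39, interval 0.13 to 0.65, adjusted p = 0.0553). Probe set 1422540_at had a log2 fold change of 0.45 (interval 0.08 to 0.81, adjusted p = 0.103). In the opposite direction, 1439688_at read 7.13 and 7.02 in K5-IKKbeta skin and 7.49 and 7.41 in wild type skin (-0.37, interval -0.64 to -0.11, adjusted p = 0.0702). The intervals of 1451119_a_at and 1439688_at do not overlap; their difference itself was not tested, and which Fbln1 transcripts each probe set reads was not analysed here. Both lay close to the threshold: with each array centred on its median, 1439688_at was lower (-0.41, adjusted p = 0.0497), and with only probe sets above the 40th percentile tested, 1451119_a_at was higher (0.39, adjusted p = 0.0322) and 1439688_at lower (adjusted p = 0.0421).

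The pools of a genotype differed from each other, and not in the same direction for all proteoglycans. In K5-IKKbeta skin, array 2 read above array 1 in 15 of the 23 probe sets, against 20568 of all 45037. In wild type skin it did so in 10 of the 23, against 23580 of all 45037. All 6 Fmod probe sets read lower in array 2, by -0.26 to -0.50 on the log2 scale. Both Dcn probe sets, Lum and both Ogn probe sets read higher in array 2, by 0.15, 0.53, 0.46, 0.63 and 0.83. The wild type pools went the other way for these probe sets of Dcn, Lum and Ogn, with array 2 below array 1 by 0.12 to 0.25. For Eln probe set 1420855_at and Bgn probe set 1448323_a_at the pools of K5-IKKbeta skin differed by 0.02 and 0.04 only. With 2 pools of each genotype these differences are values without a test.

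**Figure D3:**
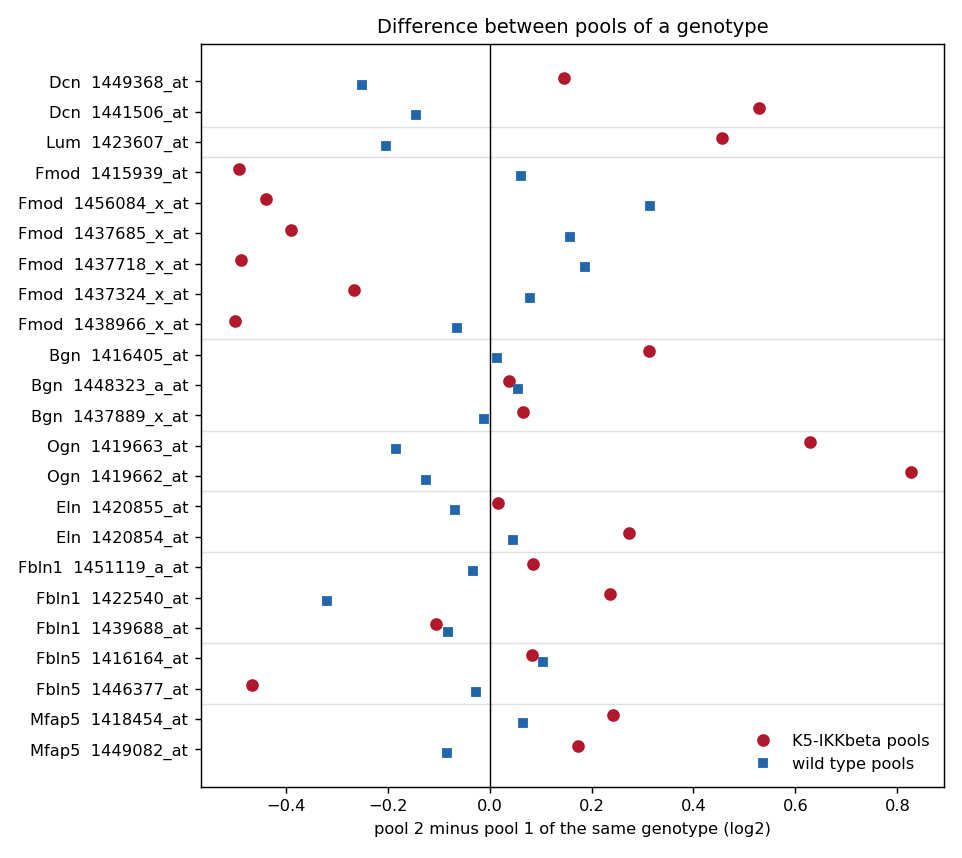
Difference between the pools of a genotype (array 2 minus array 1, log2) for each of the 23 probe sets; red circles are K5-IKKbeta pools and blue squares wild type pools. The K5-IKKbeta circles lie left of 0 for all Fmod probe sets and right of 0 for Dcn, Lum, Bgn, Ogn, Eln and Mfap5.

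Several small proteoglycan genes lie side by side in the mouse gene table, and the values of neighbours are given side by side. Dcn and Lum stand in a run of 4 adjacent protein-coding genes on chromosome 10 with Kera, the keratan sulfate proteoglycan keratocan of cornea, and Epyc, epiphycan of cartilage. Kera read 6.50 and 6.67 in K5-IKKbeta skin, against 5.49 and 5.51 in wild type skin, 2.13-fold higher (limma adjusted p = 0.00171). Its wild type values lay close above the floors of those arrays, 5.38 and 5.31. Epyc lay below the floor in all 4 arrays. Fmod stands on chromosome 1 beside Prelp, whose proteoglycan anchors basement membranes to connective tissue, and Optc, opticin of the eye. Prelp was 1.82-fold higher (9.49 and 9.45 in K5-IKKbeta skin, against 8.73 and 8.48 in wild type skin, adjusted p = 0.00557), and Optc had a log2 fold change of -0.20 (adjusted p = 0.376). Ogn stands on chromosome 13 in a run of 4 with Omd, Aspn and Ecm2. Of these only Ecm2, a matrix protein with leucine-rich repeats, passed (6.77 and 7.37 in K5-IKKbeta skin, against 6.14 and 6.06 in wild type skin, log2 fold change 0.97, adjusted p = 0.0201). Aspn, asporin, read 9.65 and 10.68 in K5-IKKbeta skin and 9.68 and 9.60 in wild type skin (0.53, adjusted p = 0.321), so that K5-IKKbeta array 2 alone was high, as it was for Ogn. Omd, osteomodulin, had a log2 fold change of 0.05 (adjusted p = 0.832). Bgn, on chromosome X, has no such neighbour.

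Other genes of the same pathways were taken from lists made by role, with the brightest probe set for each gene. Among all genes, 14.3% were higher and 6.67% lower by this count. Of 10 other small leucine-rich proteoglycans with a probe set, 3 were higher and 0 lower (median log2 fold change 0.16), namely Kera, Ecm2 and Prelp given above. Of 19 other elastic fibre and microfibril proteins, 10 were higher and 2 lower (median 0.59). Fbn2, fibrillin-2, read 9.24 and 9.97 in K5-IKKbeta skin, against 7.64 and 8.08 in wild type skin, 3.35-fold higher (adjusted p = 0.00621). Ltbp2, a microfibril protein of the family that binds latent TGF-beta, was 2.54-fold higher and Fbln2, fibulin-2, 2.42-fold higher. Those that were lower were Ltbp3, which binds latent TGF-beta (log2 fold change -0.63, adjusted p = 0.0258), and the fibulin Fbln7 (-0.71, adjusted p = 0.0179).

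Of 4 lysyl oxidases, 2 were higher and 0 lower. Loxl1, which cross-links elastin, read 10.01 and 10.29 in K5-IKKbeta skin, against 8.86 and 8.81 in wild type skin, 2.49-fold higher (adjusted p = 0.00141), and Loxl4 was 1.81-fold higher (adjusted p = 0.00884). Of 26 enzymes that build or sulfate glycosaminoglycan chains, 8 were higher and 0 lower (median 0.23). Chst1, which sulfates keratan sulfate, was 2.28-fold higher, Xylt2, which starts the chains on the core protein, 2.04-fold and Chst15, which sulfates chondroitin sulfate, 1.70-fold. Of 6 TGF-beta ligands and receptors, 4 were higher and 0 lower (median 1.06), with Tgfbr2, Tgfb3 and Tgfbr3 at 2.26-fold, 2.18-fold and 2.10-fold.

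Of 10 collagen chains that small proteoglycans bind or lie beside, 6 were higher and 0 lower (median 1.03). Col6a3 of the beaded filaments was 2.62-fold higher (adjusted p = 0.000973), Col14a1 of fibril surfaces 2.55-fold and Col5a1 of fibril cores 2.29-fold. The chains of the main dermal fibrils did not pass, a set picked after their values were seen: Col1a1 read 14.44 and 14.58 in K5-IKKbeta skin and 14.28 and 14.20 in wild type skin (log2 fold change 0.27, adjusted p = 0.172), Col1a2 had 0.24 and Col3a1 0.19. All 3 lay at the top of the range of the arrays.

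Of 19 enzymes able to cut elastin, fibrillin or small proteoglycans, 9 were higher and 1 lower (median 0.54). Below the floor in both genotypes lay 2 of the 19, among them Mmp13, which is counted as higher. Ctss, an elastin-cutting cathepsin of antigen-presenting cells, read 11.93 and 11.96 in K5-IKKbeta skin, against 10.17 and 10.19 in wild type skin, 3.40-fold higher (adjusted p = 0.000208). Mmp12, the macrophage elastase, was 2.99-fold higher with a wide spread in wild type skin (6.40 and 5.28), and Ctsk, a collagen-cutting and elastin-cutting cathepsin, 2.33-fold higher. Ctsl, a lysosomal cathepsin, was lower (-0.84, adjusted p = 0.0033).

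**Figure D4:**
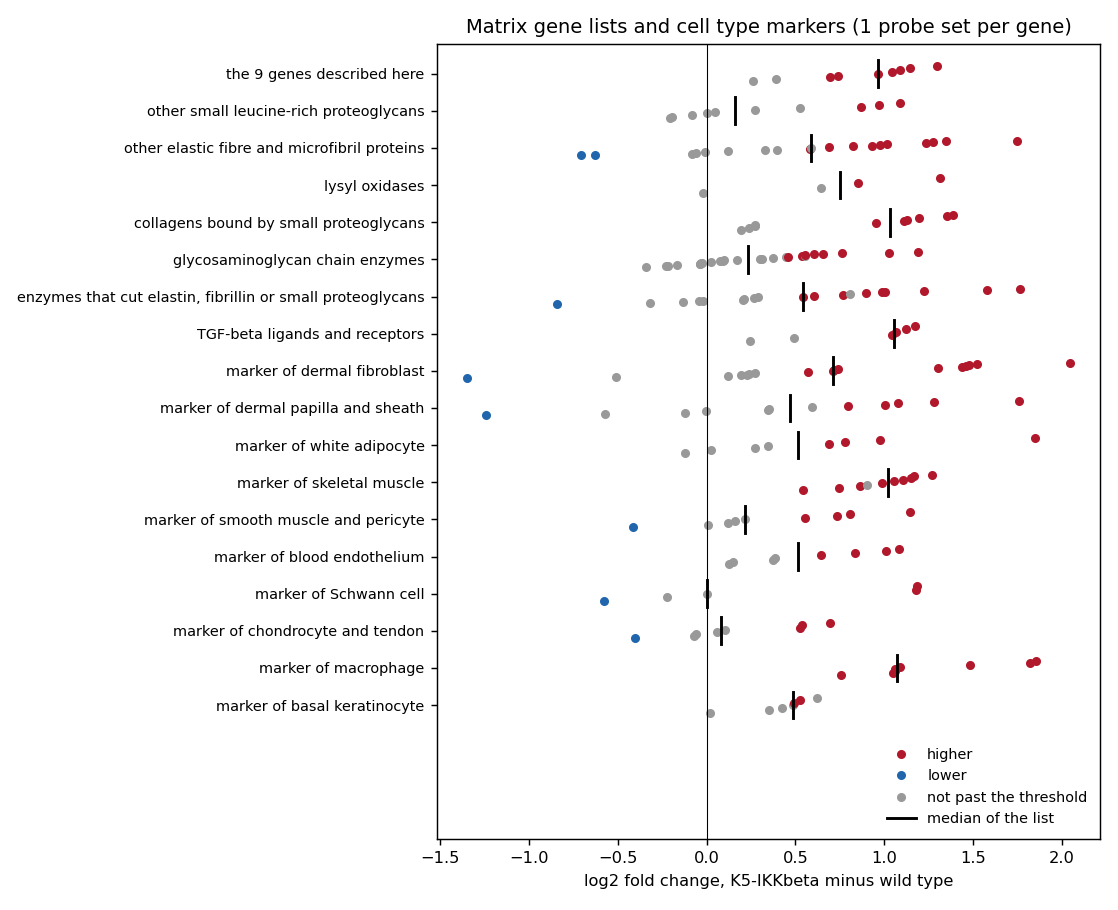
Log2 fold change (K5-IKKbeta minus wild type) of the brightest probe set of each gene, for the 9 genes described, lists of related genes and markers of cell types; red is higher, blue lower, grey not past the threshold, and black bars are list medians. The median of the 9 genes is 0.97, beside 1.02 for skeletal muscle and 1.07 for macrophage markers; hair shaft markers, with a median of -6.16, are left off the axis.

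Marker lists of several cell types were higher too, to differing extents. Among all genes, 14.3% were higher and 6.67% lower by the same count. Of 17 dermal fibroblast markers 10 were higher and 1 lower (median 0.71), their summed linear level was 91740 and 100838 in K5-IKKbeta skin, against 74401 and 70044 in wild type skin, and none lay below the floor in both genotypes. S100a4, also made by leukocytes, was 4.13-fold higher, Twist2, a transcription factor of dermal fibroblasts, 2.87-fold and Thy1 2.78-fold, while Dpp4, a marker of upper dermal fibroblasts in mouse skin, was lower (log2 fold change -1.35, adjusted p = 0.00065); Col1a1, Col1a2 and Col3a1 are in this list too. Of 10 skeletal muscle markers, which come from the muscle layer under the dermis, 9 were higher and 0 lower (median 1.02), with a summed level of 97370 and 87542 in K5-IKKbeta skin and 51177 and 49985 in wild type skin. All 8 macrophage markers were higher (median 1.07), with 11419 and 12015 in K5-IKKbeta skin and 5116 and 4712 in wild type skin. Of 8 white adipocyte markers 4 were higher and 0 lower (median 0.52), of 8 endothelial markers 4 and 0 (median 0.51), of 9 smooth muscle and pericyte markers 4 and 1 (median 0.22), of 12 dermal papilla and sheath markers 5 and 1 (median 0.47), of 5 Schwann cell markers 2 and 1 (median 0.00), of 8 chondrocyte and tendon markers 3 and 1 (median 0.08), and of 7 basal keratinocyte markers 2 and 0 (median 0.49).

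Hair shaft markers moved the other way. Of 13 with a probe set, 12 were lower and 0 higher (median -6.16), and their summed linear level was 2881 and 4219 in K5-IKKbeta skin, against 178039 and 178884 in wild type skin. Another quantile normalization was made without all keratin and keratin-associated protein genes, epidermal keratins among them, and without some other hair genes. All 15 probe sets stayed higher there, with a median log2 fold change over the 23 of 0.67 in place of 0.80. The values had already been normalized by RMA, so this cannot show what the loss of hair RNA did to them. The part of the cell make-up of the skin in these differences was not tested.

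The gene of the transgene and the arrays as a whole were checked. Of 5 Ikbkb probe sets 3 were higher in K5-IKKbeta skin, the most by 4.71-fold (8.77 and 8.74 in K5-IKKbeta skin, against 6.50 and 6.54 in wild type skin). Array medians lay between 6.91 and 6.95 on the log2 scale. Over probe sets (no independent replicates), Pearson's correlation was 0.994 between K5-IKKbeta arrays, 0.996 between wild type arrays and 0.965 to 0.969 between genotypes.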

How the data were processed

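The deposited values are log2 RMA expression values per probe set; RMA is named in the submitters' processing notes without a version, and the log base was read from the values. RMA corrects background, normalizes by quantiles, summarizes probes per probe set and compresses large changes. Per the labels' protocols, biotin-labelled cRNA was made from 5 micrograms of total RNA. Gene symbols came from GEO's platform annotation, which gave 34958 probe sets 1 symbol, 932 several and 9211 none; 34754 matched the RefSeq gene table of GRCm38.p6 by identifier, used for names, neighbours and chromosomes. After 64 control probe sets were left out, 45037 went into a linear model (limma 3.58.1, R 4.3.3; moderated test, genotype as the only term, two-sided, 4.46 prior and 2 residual degrees of freedom), with Benjamini-Hochberg adjustment over all of them and a threshold of 0.05. Intervals are 95% from the moderated fit. The fit was tested on simulated data. Alternatives changed the scaling, the filter, the moderation and the arrays included. The median log2 fold change of all probe sets was 0.00.

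All probe sets of the 10 genes are reported. There were 18 other gene lists. For those of related genes and of dermal fibroblast markers, up to 3 genes in each direction with the largest change past the threshold are named. The other marker lists are given by counts, medians or summed levels, without gene names. Other genes named were picked after their values were seen. Members and lists were chosen with earlier results of these data known. The p-values rest on the spread between pools, moderated by that of all probe sets, and not on a spread between single mice. The number of arrays limits the precision. Where both values of the dimmer genotype were under the 25th percentile of the array, the fold is at least the brighter mean over that percentile. No detection calls, batch or scan date were used here.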

Additional observations from a re-analysis of the deposited data

How the results depend on the processing

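Under several settings 1 probe set of the described genes was lower in place of 0 (Fbln1 1439688_at). These were centring each array on its median, another quantile normalization, the same without all keratin and other hair genes, and a filter at the 40th percentile. The first 3 of them kept all 15 that were higher. With 1 probe set per gene above the 40th percentile, 3055 of 13080 genes were higher and 1380 lower. Among them 8 of the 9 described genes were higher, with Fbln1 1451119_a_at newly called (limma adjusted p = 0.02335). Without moderation of the spread 11 probe sets were higher and 8 lower, with 0 of the described ones. An unadjusted p under 0.05 (limma without moderation) was reached by 15 of the described probe sets and by 9287 of all 45037. A test against a 1.2-fold change (treat) gave 2383 higher and 1232 lower, with 11 of the 15 calls kept. Without the probe sets whose ID (_s_at, _x_at or _a_at) tells of probes common to several transcripts, 9 of the remaining 15 were higher. Leaving out each array in turn gave 6 to 16 of the described probe sets higher, and 1648 to 4406 higher and 840 to 2690 lower over the array. Of the values that changed sign, none had passed the threshold with all arrays: Fbln5 1446377_at read 0.02 in both requantiled settings (0.018 and 0.015) and -0.25 to 0.22 with each array left out in turn, and Ogn ranged over -0.054 to 0.58 (1419663_at) and -0.31 to 0.51 (1419662_at) in the same way. Replicate numbers are shared by the genotypes, but nothing in the labels pairs them; deviations of same-numbered arrays correlated at 0.25 over probe sets, and with the replicate number as a block 14 of the 15 were kept (Fmod 1437685_x_at, adjusted p = 0.0656), with 4502 higher and 2633 lower. The cause of these changes was not tested.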
